A study of Mesocricetus auratus with 21 samples.

Results

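The 4 PIWI genes of the golden hamster (*Mesocricetus auratus*), *Piwil1*, *Piwil2*, *Piwil3* and *Piwil4*, were followed in testis RNA through postnatal development, with and without the RNA helicase *Mov10l1*. They were chosen by name and by no cutoff on a measured value, though with earlier results of these data known. They are 4 of the 22285 genes in the deposited count table. *Piwil1*, *Piwil2* and *Piwil4* took names and positions from the study's tables of changed genes, partly drawn from newborn and day-9 testes described below. Their calls at those ages may therefore not be independent evidence. On the MesAur1.0 assembly *Piwil1* (ENSMAUG00000016892) lies on scaffold KB708228.1 from 630774 to 647300 on the minus strand. *Piwil2* (ENSMAUG00000003138) lies on KB708152.1 from 18652787 to 18691753 on the plus strand, and *Piwil4* (ENSMAUG00000011382) on KB708288.1 from 532888 to 576799 on the minus strand. *Piwil3* is a row of the table under its name alone, and its position was not used here.

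The RNA came from entire testes of wild-type (*Mov10l1*+/+) and *Mov10l1*-/- animals aged 0, 9, 13 or 21 days postpartum (d.p.p.) or adult. The *Mov10l1*-/- animals lack exon 20 of *Mov10l1* through a CRISPR deletion, on an allele that came from 1 founder female and was crossed to outbred wild types. There were 21 libraries, 2 for every genotype and age and a further wild type at 9 d.p.p. Adult wild types had reached 65 and 23 weeks, and adult *Mov10l1*-/- males 63 and 53 weeks. Both 9 d.p.p. *Mov10l1*-/- libraries carry the code of 1 animal, so p-values there measure the spread of libraries, which may be technical. Animal codes begin with a part that some animals share, and in that part wild-type replicate 3 of 9 d.p.p. matches the *Mov10l1*-/- animal, while wild-type replicates 1 and 2 match each other. At birth both *Mov10l1*-/- animals share a beginning that neither wild type has. Genotype and this part of the code therefore cannot be told apart there, nor in comparisons that use those libraries. The same holds for 9 d.p.p. fits that use wild-type replicates 1 and 2 only.

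PIWI proteins are the germline branch of the Argonaute family and carry PIWI-interacting RNAs (piRNAs), which guide them to transcripts of retrotransposons and other targets. PIWIL2 and PIWIL4 act in fetal and newborn male germ cells, where PIWIL4 enters the nucleus and directs DNA methylation of retrotransposons, and PIWIL1 acts later, in spermatocytes and round spermatids, with the abundant pachytene piRNAs. *Piwil3* is missing from mice and rats but present in hamsters, and it is best known from oocytes. MOV10L1 is an RNA helicase that germ cells need to make piRNAs.

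The libraries held between 3550217 counts (wild-type replicate 2 of 13 d.p.p.) and 77527451 counts (wild-type replicate 1 of 9 d.p.p.). Reads were 75-nucleotide single-end at 0 and 9 d.p.p. and 150-nucleotide paired-end at the later ages, so that a change from 9 to 13 d.p.p. and a change of read type cannot be told apart. *Mov10l1* itself lay between 0.129 and 10.9 CPM (counts scaled to a common library size) in the 10 *Mov10l1*-/- libraries and between 18.8 and 134 CPM in the 11 wild types. The germ-cell markers, 6 of 6 listed, summed to 207 to 251 CPM in wild types and 258 to 336 CPM in *Mov10l1*-/- testes of newborns. They belong to the genes that the study selected on the 9 d.p.p. libraries, so their direction at that age is not independent evidence. At 9 d.p.p. the sums were 64.7 to 88.5 against 28.7 to 32.6 CPM, at 13 d.p.p. 145 to 202 against 4.33 to 14.1 CPM, at 21 d.p.p. 505 to 723 against 2.45 to 3.46 CPM and in adults 837 to 959 against 27.1 to 29.0 CPM. In bulk testis RNA, fewer germ cells and less RNA per germ cell cannot be told apart, and the part of cell numbers in the PIWI values below was not tested. The adult wild-type sum is mostly *Ddx4*, with a mean of 661 CPM. In adult *Mov10l1*-/- testes *Ddx4* had a mean of 5.05 CPM, and *Dazl*, at 10.6 CPM, was the largest of the 6. The 2 adult sums are therefore made up differently. In adults 3 of the 6 markers were called lower (*Ddx4*, *Dazl* and *Tex14*), while *Sall4* had means of 1.60 CPM in wild types and 3.66 CPM in *Mov10l1*-/- testes. *Clu*, the only 1 of 5 Sertoli-cell markers that could be found by name, lay at 1450 to 1700 against 853 to 1130 CPM at birth. In adults it lay at 547 to 745 against 4750 to 4830 CPM. *Cyp11a1*, the only 1 of 5 Leydig-cell markers so found, lay at 32.3 to 34.5 against 67.3 to 68.8 CPM at birth. In adults it lay at 17 to 25.6 against 594 to 745 CPM. Both were named from the study's tables of changed genes, *Clu* from that of newborns and *Cyp11a1* from that of 9 d.p.p. The direction of *Clu* at birth is thus not independent evidence.

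*Piwil4*, which encodes the nuclear PIWI protein of newborn germ cells, was highest at birth in both genotypes. In wild types it stood at 320 and 343 CPM at 0 d.p.p., 14.2, 8.51 and 33.0 CPM at 9 d.p.p. and 5.85 and 6.42 CPM at 13 d.p.p. Later values were 5.25 and 4.50 CPM at 21 d.p.p. and 2.77 and 3.08 CPM in adults. The wild-type order thus followed age, each age above the next in every library. Without *Mov10l1* it stood at 236 and 175 CPM at 0 d.p.p., 3.35 and 3.80 CPM at 9 d.p.p., 0.433 and 0.420 CPM at 13 d.p.p., 0.258 and 0.147 CPM at 21 d.p.p. and 1.40 and 1.56 CPM in adults. The *Mov10l1*-/- libraries lay below every wild-type library at each of the 5 ages, and here the lowest age was 21 d.p.p., with adults above both ages before them. At 9 d.p.p. wild-type replicate 3 held more *Piwil4* than the other wild types of that age.

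*Piwil2*, which encodes the cytoplasmic PIWI protein present from newborn germ cells onwards, was high in wild types at birth and again from 21 d.p.p. It stood at 154 and 132 CPM at 0 d.p.p., 30.2, 24.4 and 33.6 CPM at 9 d.p.p. and 23.2 and 39.3 CPM at 13 d.p.p. Later values were 194 and 148 CPM at 21 d.p.p. and 117 and 104 CPM in adults. The ages 21 and 0 d.p.p. overlapped, as did 13 and 9 d.p.p., and adults lay between these 2 pairs of ages without overlap. The *Mov10l1*-/- values of *Piwil2* stood at 119 and 84.5 CPM at birth and 7.40 and 8.77 CPM at 9 d.p.p. They were 2.31 and 0.194 CPM at 13 d.p.p., 0.129 and 0.382 CPM at 21 d.p.p. and 3.51 and 3.69 CPM in adults. These libraries lay below every wild type of their age at all 5 ages, and their order was birth, 9 d.p.p., adult and then the ages 13 and 21 d.p.p., which overlapped.

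*Piwil1*, which encodes the PIWI protein of pachytene spermatocytes and round spermatids, was low in young wild types and high from 21 d.p.p. In wild types it stood at 12.2 and 8.80 CPM at 0 d.p.p., 7.33, 6.19 and 4.24 CPM at 9 d.p.p. and 5.33 and 7.96 CPM at 13 d.p.p. At 21 d.p.p. it stood at 389 and 171 CPM, and in adults at 430 and 420 CPM. Only the ages 13 and 9 d.p.p. overlapped among neighbours in this order, although the adult mean was 1.52 times that of 21 d.p.p., whose own libraries lay far apart. The *Mov10l1*-/- values of *Piwil1* stood at 14.2 and 10.6 CPM at 0 d.p.p., overlapping the wild types, and at 1.66 and 1.86 CPM at 9 d.p.p. It stood at 6.28 and 0.258 CPM at 13 d.p.p., 0.386 and 0.235 CPM at 21 d.p.p. and 1.55 and 0.952 CPM in adults. *Mov10l1*-/- replicate 1 of 13 d.p.p. thus lay within the wild-type range and replicate 2 far below it. The mean of the adult *Mov10l1*-/- testes was 0.294% of the wild-type mean for *Piwil1*, 3.26% for *Piwil2* and 50.6% for *Piwil4*.

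*Piwil3*, the oocyte PIWI gene, was at or under 37 counts in all 21 libraries. Newborn wild types held 37 and 29 counts, and those of 9 d.p.p. held 27, 16.5 and 32. There were 0 and 2 counts at 13 d.p.p., with 6 and 8 counts in those of 21 d.p.p. and 6 and 3 in adults. *Mov10l1*-/- testes held 17.5 and 7.5, 5 and 7, 5 and 3, 3 and 2, and 3 and 7 counts at the same ages. Summed over a group, this came to 0.651 CPM in wild types of 0 d.p.p. (exact 95% Poisson interval 0.503 to 0.828) against 0.188 CPM in *Mov10l1*-/- testes (0.121 to 0.277). At 9 d.p.p. it came to 0.375 CPM (0.295 to 0.470) against 0.0888 CPM (0.0459 to 0.155), so that the intervals did not meet at either age. At 21 d.p.p. the sums were 0.585 CPM (0.320 to 0.981) against 0.101 CPM (0.0327 to 0.235). At 13 d.p.p. the wild types held 2 counts in all, 0.149 CPM (0.0180 to 0.537), against 0.179 CPM (0.0771 to 0.352), and in adults the values were 0.189 CPM (0.0865 to 0.359) against 0.164 CPM (0.0784 to 0.301), so a difference was not detectable at this depth. The intervals cover counting error alone, and across ages all neighbours in the order of *Piwil3* overlapped in both genotypes.

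**Figure D1:**
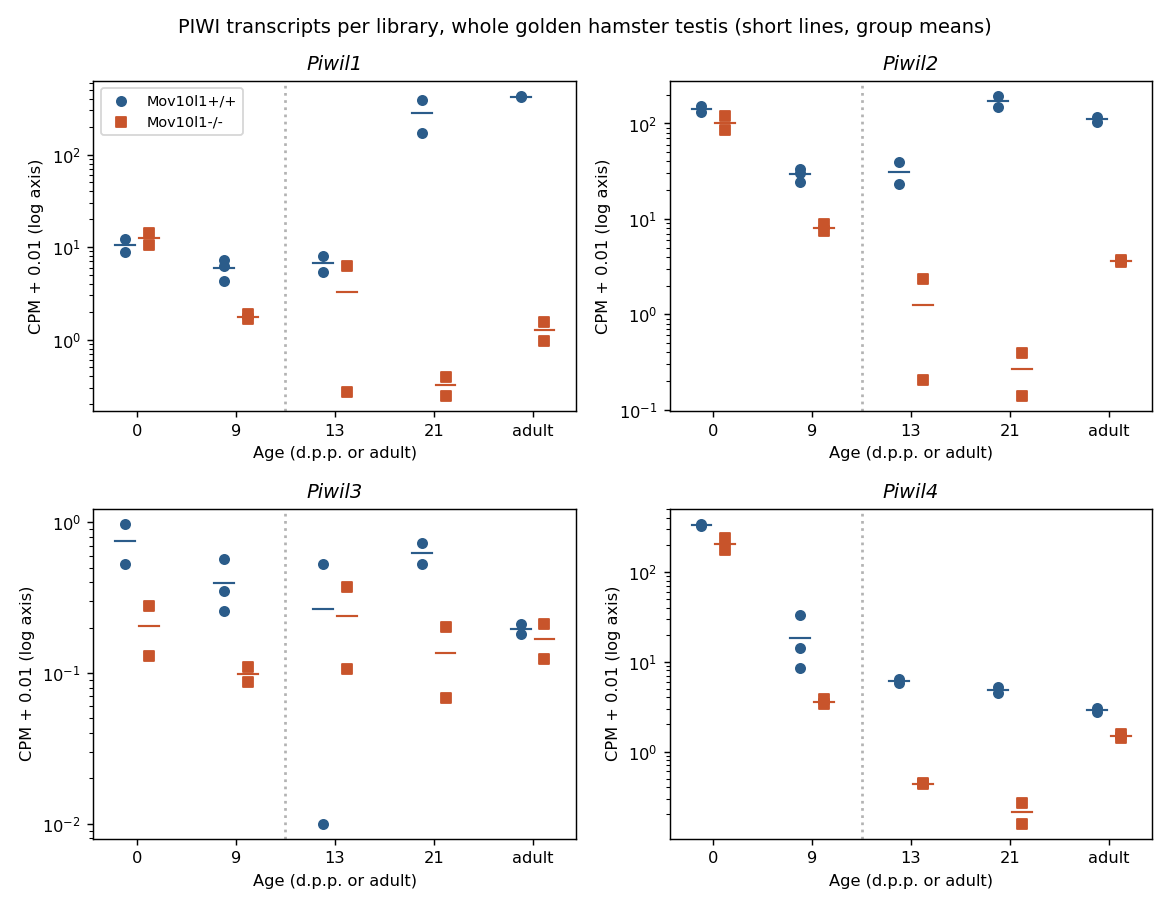
Level of each PIWI gene in each of the 21 libraries, in CPM plus 0.01 on a log axis, against age. Circles are *Mov10l1*+/+ and squares *Mov10l1*-/- libraries, short lines are group means, and the dotted line separates single-end from paired-end libraries. *Piwil4* is highest at birth, *Piwil1* is high only in wild types of 21 d.p.p. and adults, and *Piwil3* stays below 1 CPM throughout.

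To ask when PIWI transcripts change in the absence of *Mov10l1*, genotypes were compared at each age with edgeR's quasi-likelihood test over all genes, and a gene was called at a Benjamini-Hochberg adjusted p below 0.01. At 0 d.p.p. 0 of the 4 PIWI genes were called, where 0.931% of the 16333 genes tested were called lower. *Piwil4* was at a log2 fold change of -0.69 ± 0.139 (SE, adjusted p = 0.0132), *Piwil2* at -0.49 ± 0.145 (0.061), *Piwil3* at -1.86 ± 0.544 (0.0595) and *Piwil1* at 0.23 ± 0.182 (0.498). At an unadjusted p below 0.05 there were 3 of 4 past the threshold, and DESeq2 called 1 of 4, *Piwil4* (adjusted p = 0.000176). *Piwil4* was also past the threshold without wild-type replicate 1 (0.00912) or *Mov10l1*-/- replicate 1 (6.67e-05), and *Piwil2* without the latter (0.000555). Of the 6 germ-cell markers at this age, *Dazl* (0.83, 0.0049) and *Tex14* (0.96, 0.0024) were called higher and *Uchl1* (-1.54, 0.00103) lower, and *Ddx4* was at 0.10 ± 0.154 (0.769). The Leydig-cell gene *Cyp11a1* was called higher (1.03, 0.000622), and the Sertoli-cell gene *Clu* was at -0.67 (0.0284) and called by DESeq2. *Clu* was named from genes that the study selected with DESeq2 on these newborn libraries, so that call is not independent evidence. The part of these marker shifts in the PIWI values was not tested.

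At 9 d.p.p. 3 of the 4 PIWI genes fell, where 3.19% of 15569 genes were called lower. With wild-type replicates 1 and 2, the libraries of the study's own comparison, *Piwil1* fell by 1.95 on the log2 scale (SE 0.143, adjusted p = 0.00039), *Piwil2* fell by 1.77 (SE 0.126, 0.000357) and *Piwil4* fell by 1.68 (SE 0.226, 0.00408). *Piwil3* was at -1.73 ± 0.429 (0.0367). Over the same libraries *Ddx4* fell by 1.71 (SE 0.126, 0.000392). With wild-type replicate 3 as well, 1 of the 4 was called, where 0.342% of genes were called lower. *Piwil2* then fell by 1.87 (0.00253), while *Piwil1* was at -1.76 (0.0118) and *Piwil4* at -2.39 (0.0628). With both libraries of the *Mov10l1*-/- animal summed to 1 and set against 3 wild types, so that the lone library is assumed to vary as they do, 0 of 4 were called, as were 0.0% of all genes, and the fold changes of *Piwil1*, *Piwil2* and *Piwil4* were -1.76, -1.87 and -2.39 (0.111, 0.0361 and 0.344). In this last fit 4 of 4 had an unadjusted p below 0.05. Against wild-type replicate 3 alone, whose code has the same beginning, the *Mov10l1*-/- libraries were again lower for all 4 genes.

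At 13 d.p.p. 3 of the 4 PIWI genes passed the filter on low counts and 0 of them were called, where 0.121% of 13254 genes were called lower. *Piwil2* was at -4.92 ± 0.922 (adjusted p = 0.0525), *Piwil4* at -3.93 ± 0.512 (0.0156) and *Piwil1* at -1.17 ± 1.08 (0.696), and 2 of the 3 had an unadjusted p below 0.05. DESeq2 called 1, *Piwil4* (1.51e-06). Each number pairs a wild type with a *Mov10l1*-/- animal whose code has the same beginning. With that pair as a block 2 of 3 were called, *Piwil2* (-5.20, 1.95e-23) and *Piwil4* (-3.95, 2.49e-07), where 3.46% of genes were called lower. With only 2 pairs, the p-values of this fit rest mostly on the spread pooled over all genes, not on that of each gene. *Mov10l1*-/- replicate 1 held more *Piwil1*, *Piwil2* and *Ddx4* than replicate 2, with 5.48 against 1.10 CPM of *Ddx4*. Without it *Piwil1* fell by 4.73 (0.000897), *Piwil2* fell by 7.38 (5.15e-11) and *Piwil4* fell by 3.95 (0.00765). Without *Mov10l1*-/- replicate 2 *Piwil2* fell by 3.83 (0.000378) and *Piwil1* was at -0.15 (adjusted p of 1.0), and without wild-type replicate 2 *Piwil4* fell by 3.82 (0.00564).

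At 21 d.p.p. all 3 PIWI genes that passed the filter fell, where 20.9% of 14834 genes were called lower. *Piwil1* fell by 10.13 on the log2 scale (SE 0.595, adjusted p = 1.93e-05), *Piwil2* fell by 9.37 (SE 0.379, 6.67e-06) and *Piwil4* fell by 4.88 (SE 0.463, 0.000149). In the *Mov10l1*-/- libraries these values rest on 6 and 8 counts of *Piwil1*, 2 and 13 of *Piwil2* and 4 and 5 of *Piwil4*. *Ddx4*, which marks germ cells, fell by 10.20 (SE 0.457, 7.51e-06), and whether the PIWI genes differed from it was not tested.

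In adults 3 of the 3 PIWI genes tested fell, where 37.2% of 15761 genes were called lower. *Piwil1* fell by 8.63 (SE 0.234, adjusted p = 1.81e-07) and *Piwil2* fell by 5.13 (SE 0.152, 2.41e-07), and *Piwil4* fell by 1.17 (SE 0.267, 0.00494). *Ddx4* fell by 7.24 (SE 0.204, 2.07e-07). The 5 spermatogonial markers summed to 91.5 to 94.4 CPM in wild types and 156 to 169 CPM in *Mov10l1*-/- testes. *Kit*, called higher, carried the difference in the sum, with means of 9.9 against 126 CPM. *Zbtb16* was also called higher (2.2 against 8.78 CPM), and *Id4* lower (62.6 against 6.48 CPM). *Gfra1* (14.6 against 17.5 CPM) and *Sohlh1* (3.59 against 3.57 CPM) were not called. The part of these markers in the *Piwil4* value was not tested. The call of *Piwil4* was lost without wild-type replicate 2 (0.0121), without *Mov10l1*-/- replicate 1 (0.0421) or replicate 2 (0.0246), with library totals in place of TMM factors (0.0143) and in a fit with the other paired-end ages (0.0107).

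**Figure D2:**
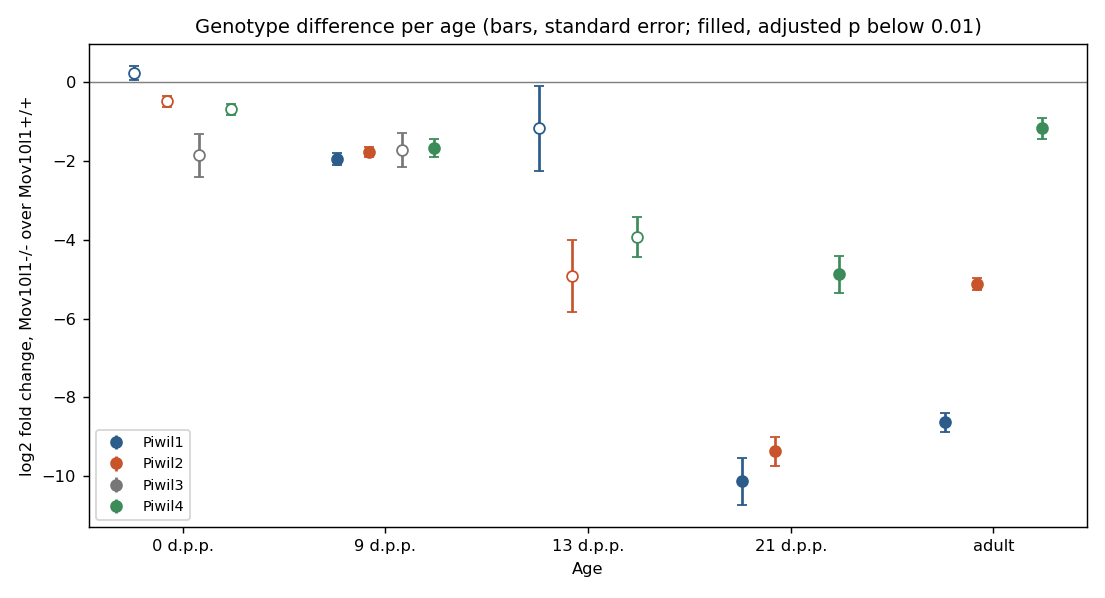
Log2 fold change of each PIWI gene in *Mov10l1*-/- over *Mov10l1*+/+ testes at each age, with bars for the standard error. Filled symbols passed an adjusted p of 0.01, and *Piwil3* has no value where it did not pass the filter. The 4 genes lie together at 9 d.p.p. and apart in adults, where *Piwil1* is at -8.63, *Piwil2* at -5.13 and *Piwil4* at -1.17.

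Comparing ages within a genotype asked how PIWI transcripts change as the testis develops. Between birth and 9 d.p.p. 3 of 4 PIWI genes fell in wild types, where 24.8% of 16808 genes were called lower. *Piwil4* fell by 4.88 on the log2 scale (SE 0.226, adjusted p = 3.71e-08), *Piwil2* fell by 2.40 (SE 0.166, 4.56e-07) and *Piwil1* fell by 0.66 (SE 0.184, 0.00807), and *Piwil3* was at -1.27 ± 0.462 (0.0305). The call of *Piwil1* was lost without wild-type replicate 1 or 2 of 9 d.p.p. (0.0169 and 0.0705), without replicate 1 of 0 d.p.p. (0.142) and in a fit of 20 libraries together (0.415). In *Mov10l1*-/- testes the same 3 fell, where 30.7% of genes were called lower. There *Piwil4* fell by 5.85 (SE 0.244, 8.87e-09), *Piwil2* fell by 3.65 (SE 0.179, 2.09e-08) and *Piwil1* fell by 2.82 (SE 0.204, 2.83e-07), with *Piwil3* at -1.12 ± 0.610 (0.118).

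The test of the difference between these falls, the interaction of genotype and age, called 2 of 4 PIWI genes, where 3.10% of genes were called lower. The fall was larger in *Mov10l1*-/- testes for *Piwil1*, with an interaction of -2.16 ± 0.272 on the log2 scale (adjusted p = 0.000945), and for *Piwil2*, with -1.25 ± 0.230 (0.00622). *Piwil4* was at -0.97 ± 0.293 (0.0563) and *Piwil3* at 0.15 ± 0.853 (0.937). The call of *Piwil2* was lost without any of 5 of the 8 libraries, namely both of *Mov10l1*-/- at 9 d.p.p. (0.0328 and 0.0128), both wild types of 0 d.p.p. (0.0127 and 0.0399) and wild-type replicate 1 of 9 d.p.p. (0.0345). Without wild-type replicate 2 of 9 d.p.p. *Piwil4* was called as well (0.00975). With the libraries of the *Mov10l1*-/- animal of 9 d.p.p. summed, *Piwil1* was at -1.98 (0.0391) and *Piwil2* at -1.36 (0.0425), and in a fit of 20 libraries at -2.17 (0.261) and -1.25 (0.362).

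From 13 to 21 d.p.p., as meiosis proceeds, 2 of 4 PIWI genes rose in wild types, where 6.40% of 16568 genes were called higher. *Piwil1* rose by 5.49 ± 0.910 (SE, adjusted p = 0.00112) and *Piwil2* by 2.52 ± 0.545 (0.00564). *Piwil4* was at -0.29 ± 0.325 (0.571) and *Piwil3* at 1.91 ± 1.2 (0.288). Without wild-type replicate 1 of 13 d.p.p. neither was called (*Piwil1* 0.0105, *Piwil2* 0.0226), and without either wild type of 21 d.p.p. *Piwil2* was not (0.0305 and 0.0119). In *Mov10l1*-/- testes 0 of 4 were called, with 5.52% of genes called in either direction, 2 of 4 PIWI genes at an unadjusted p below 0.05 and 0 of 4 called by DESeq2. *Piwil1* was at -3.30 ± 1.14 (0.0756), *Piwil2* at -1.77 ± 0.896 (0.218) and *Piwil4* at -1.15 ± 0.492 (0.144). Without *Mov10l1*-/- replicate 2 of 13 d.p.p. *Piwil1* fell by 4.38 (0.00143) and *Piwil2* fell by 2.91 (0.00734), and without replicate 1 they were at 0.14 (0.962) and 0.57 (0.751).

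The interaction called 1 of 4 over this step, where 3.43% of genes were called lower. *Piwil1* had an interaction of -8.79 ± 1.41 (SE, adjusted p = 0.00267), and *Piwil2* was at -4.29 ± 1.04 (0.0204). The call of *Piwil1* was lost without *Mov10l1*-/- replicate 1 of 13 d.p.p. (-5.43, 0.02) or without replicate 1 or 2 of 21 d.p.p. (0.0159 and 0.0268). *Piwil2* was called without *Mov10l1*-/- replicate 2 of 13 d.p.p. (-5.51, 0.00046).

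From 21 d.p.p. to adults 0 of 4 PIWI genes were called in wild types, where 48.0% of 16568 genes were called in either direction. *Piwil1* was at 0.58 ± 0.714 (adjusted p = 0.491), *Piwil2* at -0.65 ± 0.504 (0.278) and *Piwil4* at -0.75 ± 0.316 (0.0545). Of the 4, 1 had an unadjusted p below 0.05, and DESeq2 called 0. Without *Mov10l1* 2 of 4 rose, where 7.69% of genes were called higher. *Piwil2* rose by 3.58 ± 0.764 (SE, 0.00517) and *Piwil4* by 2.94 ± 0.425 (0.000491), and *Piwil1* was at 2.06 ± 1.17 (0.225). *Ddx4* rose alongside them by 4.07 ± 0.750 (0.00217), and the 6 germ-cell markers went from at most 3.46 CPM in sum to at least 27.1 CPM. The 21 d.p.p. side of these rises rests on 2 and 13 counts of *Piwil2*, 4 and 5 of *Piwil4* and 2 and 13 of *Ddx4*, so their size is uncertain.

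The call of *Piwil2* over this step was lost without any of the 4 libraries, without replicate 1 or 2 of 21 d.p.p. (0.0428 and 0.0387) and without adult replicate 1 or 2 (0.0194 and 0.0256), and that of *Piwil4* without replicate 2 of 21 d.p.p. (0.0166). The interaction called 2 of 4, where 15.0% of genes were called higher. The change was higher in *Mov10l1*-/- testes by 4.23 ± 0.925 for *Piwil2* (adjusted p = 0.00306) and by 3.69 ± 0.533 for *Piwil4* (0.000224), and *Piwil1* was at 1.48 ± 1.39 (0.405). The call of *Piwil4* was kept without each library in turn, with adjusted p-values between 0.000783 and 0.00378, while that of *Piwil2* was lost in 6 of 8 such fits, where they reached 0.0174.

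The makeup of the PIWI counts changed with age. A share depends on transcript length, so each is read only against the same gene in other libraries. In wild types *Piwil4* made up 65.8 and 70.8% of the PIWI counts at birth and 27.2, 21.6 and 46.2% at 9 d.p.p. Its shares were 17 and 11.8% at 13 d.p.p., then 0.892 and 1.39% by 21 d.p.p. and 0.502 and 0.584% in adults. *Piwil1* went the other way, from 2.50 and 1.81% at 0 d.p.p. to 66.0 and 52.8% at 21 d.p.p. and 78.2 and 79.7% in adults. *Piwil2* had its highest wild-type shares at 13 d.p.p., with 67.5 and 72.5%, and its lowest in adults, with 21.2 and 19.7%.

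At 9 d.p.p. the *Mov10l1*-/- libraries had shares of 13.3 and 12.8% for *Piwil1*, 59.3 and 60.4% for *Piwil2* and 26.8 and 26.2% for *Piwil4*, each inside the range of the 3 wild types. For *Piwil1* this rests on wild-type replicate 3, with 5.94%, and both shares lay below the 14.1 and 15.7% of replicates 1 and 2. Replicate 3 also stood apart with 46.2% *Piwil4*. In adults the genotypes did not overlap for any of these 3 genes. *Piwil1* made up 23.6% (95% Wilson interval 17.9 to 30.4%) and 14.9% (10.8 to 20.1%) of the PIWI counts in adult *Mov10l1*-/- testes, *Piwil2* 53.4% (46.0 to 60.7%) and 57.7% (51.1 to 64%) and *Piwil4* 21.3% (15.8 to 27.9%) and 24.3% (19.1 to 30.4%). These libraries held 174 and 222 PIWI counts. At 13 d.p.p. *Piwil1* took 66.9% (58.5 to 74.4%) of 130 PIWI counts in *Mov10l1*-/- replicate 1 and 26.7% (14.2 to 44.4%) of 30 in replicate 2, against 15.5 and 14.7% in wild types. At 21 d.p.p. the *Mov10l1*-/- libraries held 15 and 28 PIWI counts, too few to place their shares.

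**Figure D3:**
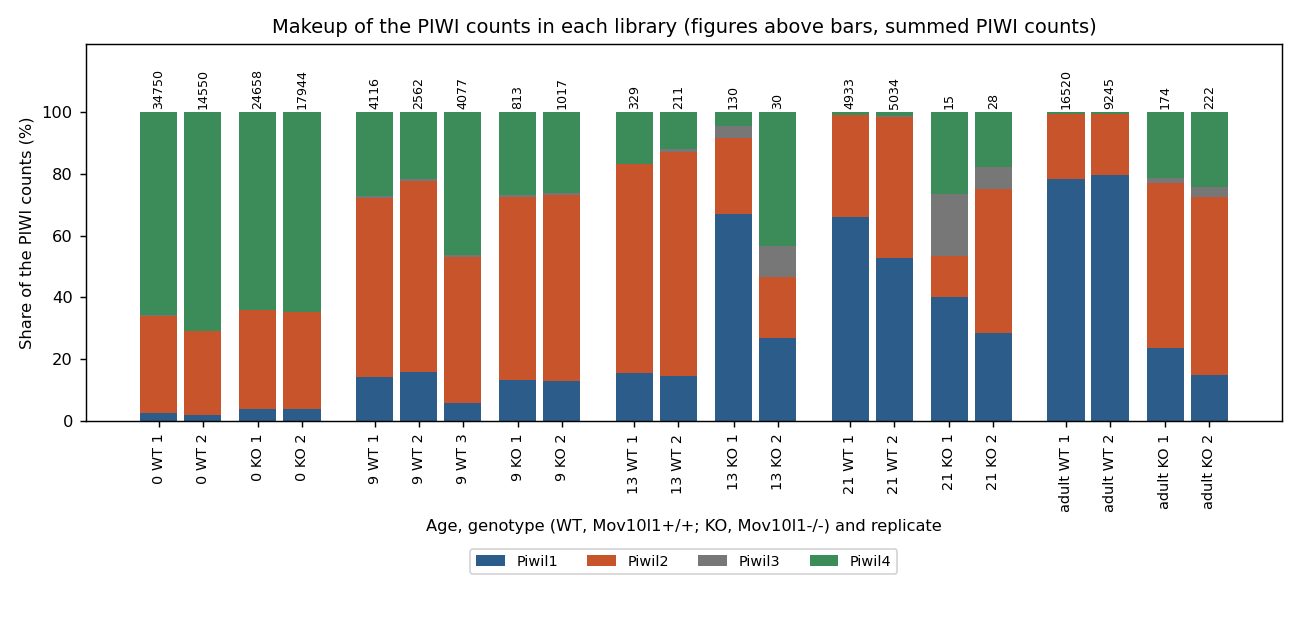
Share of each PIWI gene in the PIWI counts of each library, in percent, by age, genotype and replicate, with the summed PIWI counts above each bar. In wild types the share of *Piwil4* is highest at birth, that of *Piwil2* at 13 d.p.p. and that of *Piwil1* in adults, at 78.2 and 79.7%. In adult *Mov10l1*-/- testes the share of *Piwil1* is 23.6 and 14.9%. Shares depend on transcript length and do not rank the genes against each other.

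To set PIWI counts against germ-cell RNA, each was divided by the count of *Ddx4*, which encodes the germ-cell RNA helicase VASA, in the same library. Such a ratio shows unequal change of 2 genes and not which of them moved. At 9 d.p.p. *Piwil2* stood at 1.25, 1.27 and 1.33 per *Ddx4* count in wild types and at 1.16 and 1.24 in *Mov10l1*-/- testes, a difference of -0.09 on the log2 scale. *Piwil1* stood at 0.303, 0.321 and 0.168 against 0.261 and 0.263, and *Piwil4* at 0.585, 0.441 and 1.30 against 0.527 and 0.537, and both overlapped between genotypes, at differences of 0.05 and -0.39. Without wild-type replicate 3 both turned, to -0.25 for *Piwil1*, then without overlap, and to 0.07 for *Piwil4*, while *Piwil2* was at -0.06. With *Dazl*, another germ-cell RNA-binding protein gene, in place of *Ddx4* the differences were -0.53 for *Piwil2*, -0.39 for *Piwil1*, which turned direction, and -0.82 for *Piwil4*. Without wild-type replicate 3 these were -0.13, -0.31 and 0.0. The CPM of *Mov10l1*-/- testes at this age were 29.7% (*Piwil1*), 27.5% (*Piwil2*) and 19.3% (*Piwil4*) of the mean of 3 wild types. Against wild-type replicates 1 and 2 they were 26, 29.6 and 31.5%, so that replicate 3 moved the *Piwil4* value by over 1.5 times.

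At 0 d.p.p. the ratios of *Piwil4* were 3.20 and 4.55 in wild types against 2.18 and 2.19 in *Mov10l1*-/- testes, and those of *Piwil2* 1.54 and 1.75 against 1.10 and 1.06. The differences were -0.80 and -0.61 on the log2 scale. With *Dazl*, which was called higher in *Mov10l1*-/- testes of this age, they were -1.52 and -1.33. For *Piwil1* the direction turned with the divisor, from 0.15 with *Ddx4* to -0.57 with *Dazl*.

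In adults *Piwil4* stood at 0.00451 and 0.00434 per *Ddx4* count in wild types and at 0.247 and 0.351 in *Mov10l1*-/- testes. The difference was 6.05 on the log2 scale and 2.01 with *Dazl*, the same direction with either divisor. *Piwil1* stood at 0.701 and 0.592 against 0.273 and 0.214, a difference of -1.41, or -5.46 with *Dazl*. *Piwil2* turned with the divisor, at 0.191 and 0.147 against 0.620 and 0.831 per *Ddx4* count, a difference of 2.10, but -1.94 with *Dazl*. At 13 d.p.p., with as few as 6 counts in a library, *Piwil2* stood at 1.51 and 1.2 against 0.421 and 0.176, a difference of -2.30, or -1.12 with overlap when divided by *Dazl*. Without *Mov10l1*-/- replicate 1 or 2 this *Dazl* value was -2.19 or -0.05. *Piwil1* stood at 0.347 and 0.242 per *Ddx4* count in wild types against 1.14 and 0.235 in *Mov10l1*-/- replicates 1 and 2, which overlapped. Its difference of 0.84, or 2.02 with *Dazl*, rested on replicate 1, without which it was -0.30, or 0.44 with *Dazl*. *Piwil4* turned from -0.65 to 0.53 with *Dazl*, and to 0.49 with *Ddx4* without *Mov10l1*-/- replicate 1. With *Dazl* it turned to -0.16 without replicate 2. At 21 d.p.p. *Mov10l1*-/- testes held 2 and 13 counts of *Ddx4*, and a ratio was read only with at least 5 counts of both genes in every library, which left *Piwil1* with *Dazl*. It stood at 1.98 and 1.12 in wild types against 0.261 and 0.123, a difference of -3.06, resting on 6 and 8 *Piwil1* counts. With 2 libraries against 2, an exact permutation test cannot give a two-sided p below 0.333, so these ratios are given as values.

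**Figure D4:**
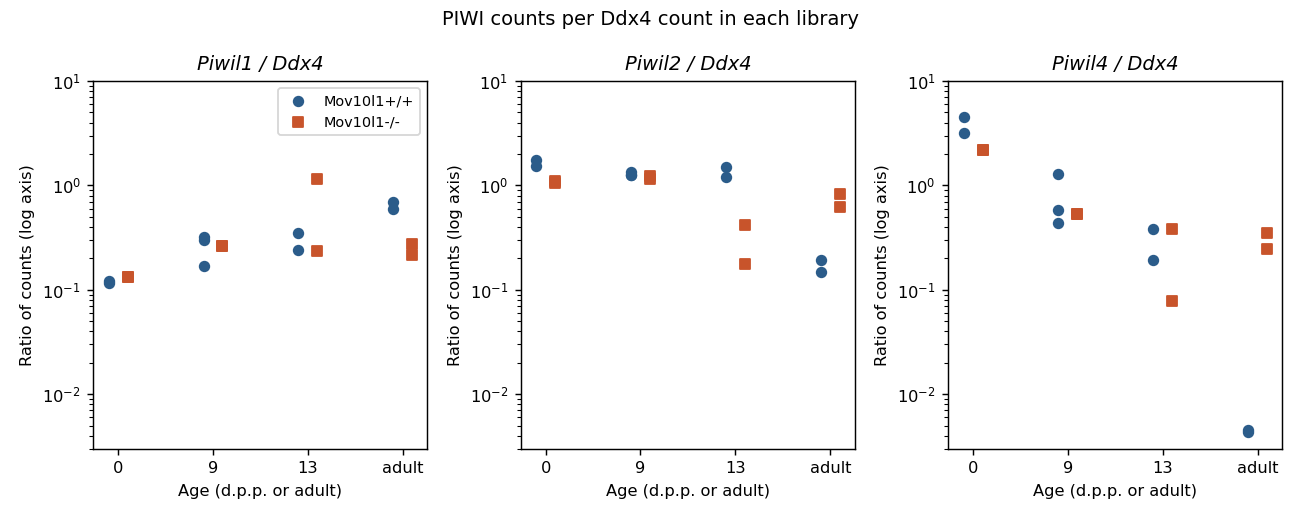
Counts of *Piwil1*, *Piwil2* and *Piwil4* per *Ddx4* count in each library, on a log axis, at 0, 9 and 13 d.p.p. and in adults; circles are *Mov10l1*+/+ and squares *Mov10l1*-/- libraries. The genotypes overlap at 9 d.p.p. for *Piwil1* and *Piwil4*, and in adults *Piwil4* lies at 0.00451 and 0.00434 in wild types and at 0.247 and 0.351 in *Mov10l1*-/- testes.

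Over the 21 libraries, which share ages and genotypes, Pearson's correlation of log2(CPM + 0.5) was 0.80 between *Piwil1* and *Piwil2*, 0.72 between *Piwil2* and *Piwil4* and 0.22 between *Piwil1* and *Piwil4*. Over the 11 wild types alone *Piwil1* and *Piwil4* stood at -0.52, and over the 10 *Mov10l1*-/- libraries at 0.83. *Piwil2* and *Piwil4* stood at 0.19 over the wild types and 0.96 over the *Mov10l1*-/- libraries, so their value of 0.72 does not describe wild types. *Piwil1* and *Piwil2* stood at 0.71 and 0.88. Candidates were 1000 genes averaging 1 CPM or more whose symbol came from the study's own lists of changed genes, and of these the most like *Piwil1* were *Boll*, a meiotic RNA-binding protein gene, *Atr*, a DNA damage kinase gene, and *Pbp2*, each at 0.97. Those most like *Piwil2* were *Rpl10l* (0.99), a testis copy of a ribosomal protein gene, *Tdrd9* (0.98), a piRNA pathway helicase gene, and *Gpat2* (0.97), a mitochondrial acyltransferase gene. Over the wild types alone these stood at 0.91, 0.87 and 0.86, and over the *Mov10l1*-/- libraries at 0.99, 0.99 and 0.97. For *Piwil4* they were *Dppa4* (0.98), known from pluripotent and early germ cells, *Nxf7* (0.97) and *Kdm1b* (0.96), a histone demethylase gene. *Piwil3* reached at most 0.64, with *Myom2*, and its counts are sparse.

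The PIWI genes were set beside 12 other genes of the piRNA pathway with an identifier, of 20 listed besides *Mov10l1*. All 12 were named from a table of genes that the study selected on the 9 d.p.p. libraries, so their direction at that age is not independent evidence. At 0 d.p.p. 0 of 12 were called lower (0.931% of all genes tested) and 1 higher, *Btbd18* (1.47, adjusted p = 0.00594), a regulator of piRNA precursor transcription, and their median was 0.22 on the log2 scale beside 0.02 over all genes. At 9 d.p.p. 11 of 12 fell (3.19% of all genes) with a median of -1.40 beside -0.01, led by the Tudor gene *Rnf17* (-2.18, 7.77e-05), while *Tdrd7* was at -0.43 (0.0185). At 13 d.p.p. edgeR called 0 of 12 (0.121% of all genes lower), with a median of -3.73 beside 0.02, while 11 of 12 had an unadjusted p below 0.05 and DESeq2 called 10. At 21 d.p.p. and in adults 12 of 12 fell (20.9 and 37.2% of all genes), with medians of -8.18 and -4.34 beside 0.04 and 0.14. In adults these ran from -8.19 for *Gtsf1*, a zinc finger partner of PIWI proteins (1.65e-07), to -1.32 for *Btbd18* (0.00171). *Piwil4*, at -1.17 ± 0.267 (SE), thus lay above all 12 and *Piwil1*, at -8.63 ± 0.234, below them. Both lay close to the nearest of the 12, and a difference from it was not tested.

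Across ages, 9 of the 12 pathway genes fell in wild types and 12 of 12 in *Mov10l1*-/- testes between birth and 9 d.p.p., where 24.8 and 30.7% of all genes were called lower, with medians of -1.65 and -3.19, steps at which *Piwil1*, *Piwil2* and *Piwil4* fell in both. From 13 to 21 d.p.p. 8 of 12 rose in wild types (6.40% of all genes), with a median of 2.33, beside *Piwil1* and *Piwil2*. Over that step without *Mov10l1*, edgeR called 0 of 12 (5.52% of all genes in either direction), with a median of -1.12, while 8 had an unadjusted p below 0.05 and DESeq2 called 4. From 21 d.p.p. to adults 7 of 12 rose in *Mov10l1*-/- testes (7.69% of all genes), with a median of 2.79, as did *Piwil2* and *Piwil4*. In wild types 2 fell and 3 rose over the same step, with a median of 0.31, a share near the 48.0% of all genes called in either direction.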

How the data were processed

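The PIWI genes, the gene lists and the tests were chosen with earlier results of these data known. The authors aligned reads to MesAur1.0 with STAR 2.7.3a and counted them over exons of Ensembl 99 genes with featureCounts 2.0.0, sharing multimapping reads as fractions, and deposited estimated counts (9.69% of values not whole) without normalization. Reads shared between similar genes are therefore split, and counts of such genes are uncertain. Symbols came from the authors' gene tables and cover 1044 genes.

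Estimated counts were rounded. Each age was fitted alone, 2 libraries a genotype, with edgeR 4.0.16 in R 4.3.3 (TMM factors, edgeR's filter on low counts, quasi-likelihood test, Benjamini-Hochberg adjustment over all genes tested, threshold 0.01), as were neighbouring ages read the same way and their interaction with genotype. Wild-type replicate 3 of 9 d.p.p. was left out of these fits, as in the study, and entered as an alternative. A standard error is the log2 fold change divided by the square root of the test's F. CPM use 1 set of TMM factors over 21 libraries. Depth is the library total, 3550217 to 77527451 counts, and intervals on counts cover counting error alone.

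Named genes were the 4 PIWI genes, *Mov10l1* as a check, *Ddx4* and *Dazl* as divisors, pathway genes described by count, and for each PIWI gene the 3 genes with the highest Pearson correlation. Alternatives were DESeq2 1.42.0, RLE factors, library totals, no filter, the replicate number as a block, joint fits and each library left out. The correlation of same-numbered libraries' deviations from their group means was 0.0775, -0.134, 0.16, -0.235 and 0.104 from 0 d.p.p. to adults. At 13 d.p.p. alone each number marks a shared beginning of the animal codes, whose meaning is not stated. The fits were tested on simulated data with 200 genes changed by 2 or -2 on the log2 scale. Between genotypes 182 of 200 were recovered at 0 d.p.p., 193 at 9 d.p.p., 133 at 13 d.p.p., 173 at 21 d.p.p. and 183 in adults. The interactions recovered 176 at 9 against 0 d.p.p. and 126 at adults against 21 d.p.p., and the wild-type step from 13 to 21 d.p.p. 181. Changes at 13 d.p.p. and in the adult interaction were thus missed most often. Tables were made with pandas 2.3.3, scipy 1.17.1 and numpy 2.4.6 under Python 3.11.15.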

Additional observations from a re-analysis of the deposited data

Results flagged for a closer look

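The genotype difference changed between ages, by the interaction test of edgeR, for 5 combinations of gene and step. From 0 to 9 d.p.p. *Piwil1* fell further in *Mov10l1*-/- testes, with an interaction of -2.16 on the log2 scale (adjusted p = 0.000945), as did *Piwil2*, with -1.25 (0.00622). From 13 to 21 d.p.p. *Piwil1* rose in wild types and did not pass the test in *Mov10l1*-/- testes, with an interaction of -8.79 (0.00267). From 21 d.p.p. to adults the interaction was 4.23 for *Piwil2* (0.00306) and 3.69 for *Piwil4* (0.000224), the genes that rose in *Mov10l1*-/- testes over that step. In the *Mov10l1*-/- libraries of 21 d.p.p. these 2 values rest on 2 and 13 counts of *Piwil2* and 4 and 5 of *Piwil4*. The *Piwil1* value of the first step and the *Piwil4* value of the last kept their calls without each library in turn, and the other 3 did not. They then ranged from -2.43 to -1.94 and from 3.22 to 4.0. Both 9 d.p.p. *Mov10l1*-/- libraries carry the code of 1 animal, so leaving 1 out does not test dependence on that animal. With them summed, the *Piwil1* interaction was -1.98 and lost its call. It was not called either in a fit of 20 libraries (-2.17, 0.261).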

How the results depend on the processing

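Of 617 refits of single PIWI fold changes, 526 kept direction and side of the threshold, 44 lost a call, 36 gained one and 11 turned direction. The count of PIWI genes called between genotypes at 0 d.p.p., 0 in the report, was 1 with DESeq2, 1 with library totals, 2 with no filter and 3 with a replicate block, and 0 to 2 without 1 library. At 9 d.p.p. the 3 called became 1 with wild-type replicate 3 and 0 with the *Mov10l1*-/- libraries summed. At 13 d.p.p. 0 became 1 with DESeq2, 2 with no filter, 2 with the replicate block, 2 in a joint fit, and 0 to 3 without 1 library; the block by the beginning of the animal codes is the same fit there. The 9 against 0 d.p.p. interaction, 2 called, gave 0 in the fit of 20 libraries, 1 with wild-type replicate 3, 0 with the summed libraries and 1 to 3 without 1 library. The 21 against 13 d.p.p. step gave 1 in place of 2 in wild types with DESeq2, and 0 to 2 without 1 library. In *Mov10l1*-/- testes it gave 1 in place of 0 with library totals, 2 with no filter and 0 to 2 without 1 library. Its interaction gave 2 in place of 1 with DESeq2, library totals, no filter and 20 libraries, and 0 to 2 without 1 library. Without 1 library the adult against 21 d.p.p. step gave 0 to 1 in place of 2 in *Mov10l1*-/- testes and 1 to 2 in the interaction. The cause of these changes was not tested. The replicate block changed no other count by over 1.5 times, and the crossed pairing at 9 and 21 d.p.p., chosen after seeing the data, gave 3 and 3 called, as without a pairing. None of the values that turned direction was called. The *Piwil3* interaction of 9 against 0 d.p.p. turned to -0.03 and -0.03 without replicate 2 of wild types or of *Mov10l1*-/- at 9 d.p.p., to -0.31 and -0.33 without those of 0 d.p.p., to -0.21 with wild-type replicate 3 and to -0.20 with summed libraries. In *Mov10l1*-/- testes from 13 to 21 d.p.p., without replicate 1 of 13 d.p.p., *Piwil1* turned to 0.14, *Piwil2* to 0.57 and *Piwil3* to 0.11, and *Piwil3* to 0.01 without replicate 2 of 21 d.p.p., which also turned its step to adults to -0.26. Over all fits without 1 library these values ranged from -0.33 to 0.82 for the *Piwil3* interaction, from -4.38 to 0.14 for *Piwil1*, -2.94 to 0.57 for *Piwil2* and -1.66 to 0.11 for *Piwil3* from 13 to 21 d.p.p., and to 1.36 for *Piwil3* from 21 d.p.p. to adults. Scaling by library totals moved the median of all genes by -0.54 to 0.43 on the log2 scale. It moved the share of higher among called genes from 45.0 to 7.94% between genotypes at 21 d.p.p., from 53.2 to 20.7% and 50.2 to 24.1% from 0 to 9 d.p.p. in wild types and *Mov10l1*-/-, from 50.2 to 26.6% from 13 to 21 d.p.p. in *Mov10l1*-/-, from 15.1 to 3.59% in that interaction and from 50.2 to 62.8% in the adult one. It moved 15 of 40 mean PIWI levels beyond 1 SD. Ratios and 9 d.p.p. percentages without 1 library, in the report, were added after seeing the data. Depth limits *Piwil3* throughout and all PIWI genes in *Mov10l1*-/- testes of 13 and 21 d.p.p.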
